A study of Drosophila melanogaster with 4 samples.

Results

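Genes for the subunits of the proteasome were followed on 4 two-colour arrays of early Drosophila embryos, collected immediately (0 min) after laser wounding. A gene was taken as a member where a non-control probe had this single gene in the platform annotation and its current symbol began with Rpn or Rpt and a digit, with Prosalpha or with Prosbeta. This gave 41 probes for 38 genes, of 11984 probes and 8240 genes tested in all. The members comprised 13 genes of the core particle, 14 genes of the regulatory particle and 11 testis copies.

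The proteasome is the large protease that degrades proteins tagged with ubiquitin. Its core particle is a barrel of stacked rings, in which the outer alpha rings gate the entrance and the inner beta rings hold the active sites. The regulatory particle caps the barrel: a base with a ring of ATPases unfolds the substrate, and a lid removes the ubiquitin. The fly genome also carries related copies of several subunit genes that are expressed mainly in the male germ line. The syncytial embryo lives on maternal RNA and protein, and ubiquitin-dependent destruction of cyclins and of maternal proteins is part of its rapid nuclear cycles.

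Each array set RNA of a wounded sample against RNA of an unwounded sample. In the wounded samples, embryos aged 0 to 1 h were dechorionated by hand, placed in halocarbon oil and wounded 8 times with a laser. The unwounded samples were handled in the same way without the laser. Both conditions carried the actin reporter sGMCA, and both were flash frozen once recovered. From each condition, 30 ug of total RNA was labelled and hybridised to a spotted cDNA array. Wounded RNA was labelled with Cy3 on the arrays of experiments 3, 7 and 8, and with Cy5 on the dye-swapped array of experiment 4. The experiments are described as independent, but no separate cultures are named, so a p-value here reflects only how far these 4 arrays spread, which may be technical. RNA came from whole embryos, which are syncytial at this age, so fewer embryos of a stage in a sample and less RNA per embryo cannot be told apart, nor can fewer cells and less RNA per cell in any older embryo.

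The values are the deposited log2 ratios of the 2 channels, loess normalised within each array. Neither the labels nor the methods say whether they stand for Cy5 over Cy3 or for the conditions, so no direction is given for any mean. Deposited ratios are printed with their sign, array by array in the order of experiments 3, 4, 7 and 8. Means over arrays are printed as sizes (absolute values) in both readings, first with the sign of experiment 4 turned against the others ("turned", which puts all arrays on 1 condition scale if the ratio is Cy5 over Cy3) and then as deposited ("not turned"). Errors are standard errors (SE) of the limma fit over n = 4 arrays unless named otherwise. The 4 arrays had medians between -0.030 and 0.0054, and SDs over spots of 0.28 to 0.39. Experiments 7 and 8, of the same dye orientation, correlated at r = -0.33 over 8226 genes and at r = -0.27 over 11810 probes. Ratios thus tended to opposite sides on these 2 arrays, and partly cancel in a mean over arrays. Genes and probes are not independent replicates. No intensities come with these values, so whether a spot read transcript above its background could not be seen.

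All 41 member probes had a value on all 4 arrays. Of 48 genes in the RefSeq gene table whose symbols meet the rule, 10 had no probe of their own that the annotation names. These were Prosbeta1, Rpt1, Rpt6, Rpn9, Rpn10, Prosalpha1R, Prosalpha3T, Prosbeta2R1, Prosbeta5R2 and Rpt6R. Measured subunits thus made up 7 of 7 alpha and 6 of 7 beta genes of the core, 4 of 6 base ATPases, 3 of 4 other base subunits and 7 of the 8 lid subunits whose symbols meet the rule. Rpn1, Rpn12 and Rpn13 had 2 spots each, which were averaged, and their spots differed by at most 0.43, 0.12 and 0.088 on any array.

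**Figure D1:**
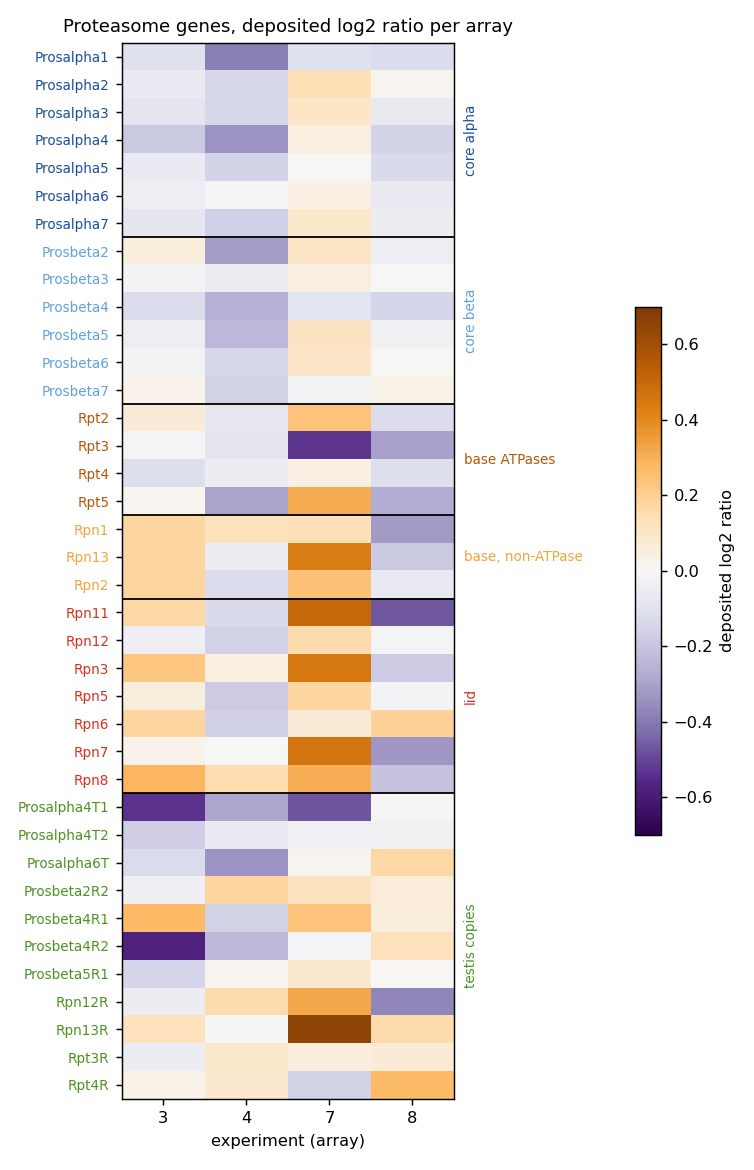
Deposited log2 ratio of the 38 proteasome genes (rows, grouped by place in the complex) on the arrays of experiments 3, 4, 7 and 8 (columns). Orange is above 0 and purple below 0, which stand for no condition since the direction of the ratio is not settled. All 13 core genes lie below 0 in experiment 4, and 12 of 14 regulatory genes lie above 0 in experiment 7 and below 0 in experiment 8.

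No proteasome gene passed the threshold immediately after wounding. With a limma fit over all 8240 genes, 0 of 38 members had a Benjamini-Hochberg adjusted p under 0.05 together with a mean of at least 1.5-fold, in either reading. Over all genes tested the same call was made for 0% turned and for 0% not turned. The smallest adjusted p of a member in limma was 0.998 turned and 0.997 not turned. At an unadjusted p under 0.05, 1 member stood out turned (Prosbeta4R1), beside 4.93% of all genes, and 1 not turned (Prosalpha4T1), beside 2.51% of all genes. Both are testis copies.

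The intervals nevertheless set limits on the mean ratio over the 4 arrays. The 95% interval of the mean lay within 1.5-fold for 38 of 38 members turned, against 92.2% of all genes, and for 37 of 38 not turned, against 91.9% of all genes. The exception, Prosalpha4T1, had an interval that reached the 1.5-fold limit. In the core particle the farthest end of any gene's interval was 1.24-fold turned and 1.29-fold not turned. In the regulatory particle it was 1.39-fold turned and 1.40-fold not turned. Among testis copies it was 1.47-fold turned. These limits cover the spread between the 4 arrays under each reading. They do not bound a change on a single array, or in a gene whose spot read no transcript, which could not be seen.

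**Figure D2:**
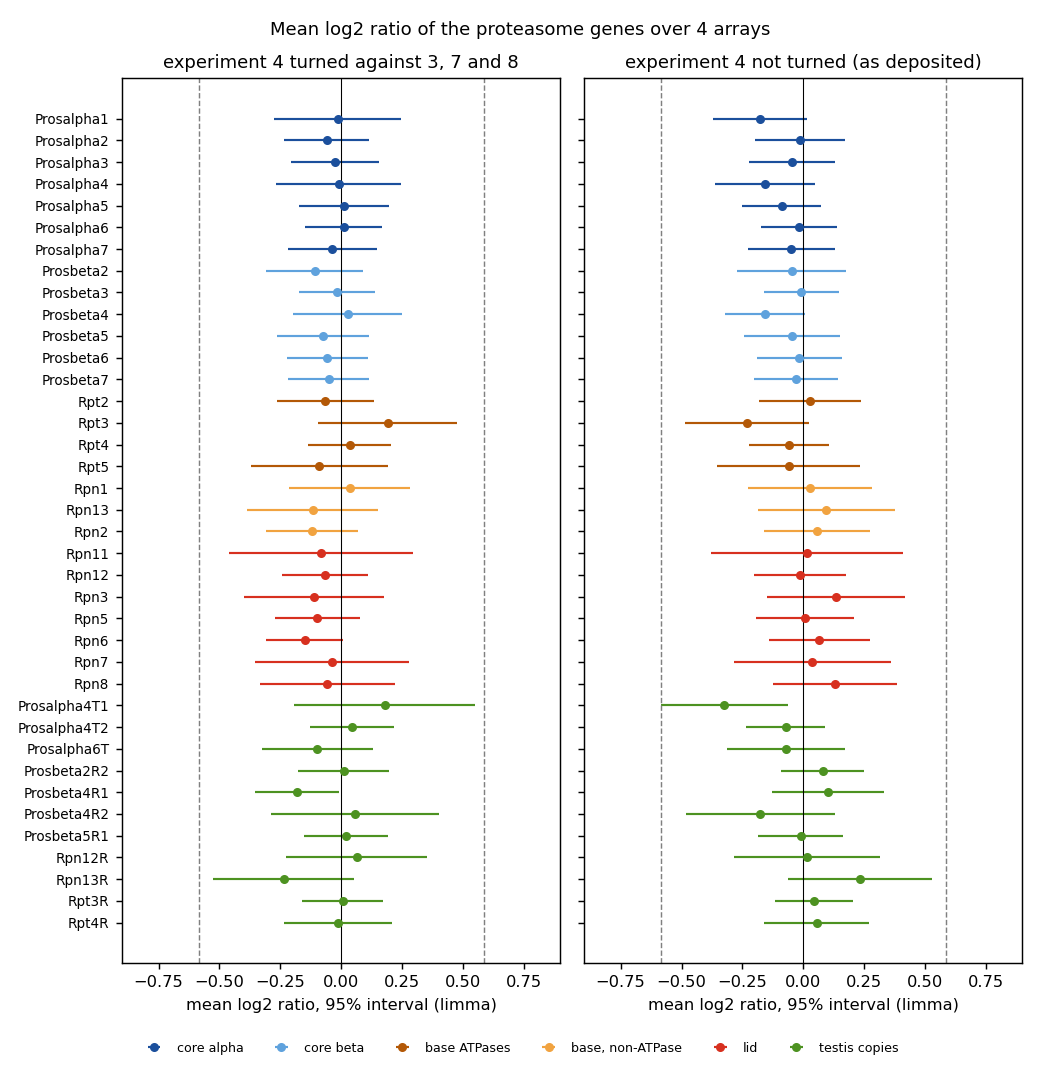
Mean log2 ratio over 4 arrays of each proteasome gene (points) with its 95% interval from limma (bars), with the signs of experiments 3, 7 and 8 reversed and that of experiment 4 kept (left) and as deposited (right). Dashed lines mark 1.5-fold. The side of 0 is no direction of change. The intervals of 38 genes on the left and 37 on the right stay inside the dashed lines.

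Most members, like most of all genes tested, had ratios on both sides of 0. The deposited ratio was above 0 on all 4 arrays for 0 members, against 4.12% of all genes. It was below 0 on all 4 arrays for 5 members (Prosalpha1, Prosalpha5, Prosbeta4, Rpt3 and Prosalpha4T2), against 5.92% of all genes. After turning experiment 4, 3 members kept 1 sign on all arrays (Rpn6, Prosbeta4R1 and Rpn13R), against 12% of all genes. Over the 38 members, the mean was 0.034 in size turned (SD of the array means 0.092) and 0.020 not turned (SD 0.097), so both lay within the spread between arrays. The size was 0.0093 without experiment 4, 0.0071 without experiment 7 and 0.069 without experiment 8 turned, and 0.0093, 0.065 and 0.0033 not turned. With a dye term it was 0.059. Not turned, the mean without experiment 4 had the opposite sign to the mean with all arrays. The median member was 0.037 in size turned and 0.014 not turned, against 0.0012 and 0.0099 for the median of all genes in the same order of readings.

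The alpha genes of the core particle form the outer rings and their gate. Their mean deposited ratio was -0.088, -0.19, 0.046 and -0.081, with 7 of 7 genes below 0 in experiments 3 and 4, 2 in experiment 7 and 6 in experiment 8. The pattern was thus low on 3 arrays and slightly high in experiment 7. Prosalpha1 had deposited ratios of -0.10, -0.39, -0.10 and -0.12. Experiment 4 stood well below the other 3 arrays, which lay close together. Its mean was 0.014 in size turned (SE 0.11) and 0.18 not turned (SE 0.079).

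Prosalpha2, another subunit of the alpha rings, had deposited ratios of -0.060, -0.15, 0.14 and 0.012. It was low in experiment 4 and high in experiment 7, with a mean of 0.059 in size turned (SE 0.071) and 0.014 not turned (SE 0.075). Prosalpha5 had -0.058, -0.16, -0.0052 and -0.14. It was below 0 on every array, yet close to 0 in experiment 7, and its mean was 0.011 in size turned (SE 0.076) and 0.089 not turned (SE 0.066). The means of the 7 alpha genes ranged in size from 0.010 to 0.059 turned and from 0.014 to 0.18 not turned.

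The beta genes form the inner rings, where the subunits of the beta1, beta2 and beta5 kind carry the proteolytic sites. Prosbeta1 was not measured. Their mean deposited ratio was -0.021, -0.20, 0.042 and -0.030, with 6 of 6 genes below 0 in experiment 4 and 4, 2 and 5 of 6 below 0 in experiments 3, 7 and 8. Prosbeta2, which carries the trypsin-like site, had deposited ratios of 0.056, -0.31, 0.11 and -0.040. Experiment 4 was again the low array. Its mean of 0.11 in size turned (SE 0.081) was the largest of the core genes in that reading, and it was 0.048 not turned (SE 0.091).

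Prosbeta4, a beta subunit without a proteolytic site, had deposited ratios of -0.13, -0.26, -0.091 and -0.15. All 4 arrays were below 0, with experiment 4 lowest. Its mean was 0.026 in size turned (SE 0.092) and 0.16 not turned (SE 0.066), and neither passed the test, with limma adjusted p of 0.998 turned and 0.997 not turned. The 6 beta genes had means of 0.018 to 0.11 in size turned and 0.0085 to 0.16 not turned. Alpha and beta genes kept close company on each array: the alpha mean minus the beta mean was -0.067, 0.0025, 0.0040 and -0.051, which averaged 0.029 in size turned (SD 0.035) and 0.028 not turned (SD 0.036).

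The base ATPases (Rpt subunits) unfold the substrate and feed it into the core. The 4 measured genes had a mean deposited ratio of -0.0088, -0.13, 0.014 and -0.20, and 4 of 4 were below 0 in experiments 4 and 8. Rpt3 had deposited ratios of -0.012, -0.083, -0.53 and -0.30. It was the only regulatory gene below 0 in experiment 7 and the lowest of all members on that array. Its mean was 0.19 in size turned (SE 0.12) and 0.23 not turned (SE 0.10), the largest of the regulatory particle in both readings, at unadjusted p of 0.15 and 0.068 in limma.

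Rpt5 had deposited ratios of 0.021, -0.30, 0.31 and -0.27. It was high in experiment 7 and low in experiments 4 and 8, so that its mean was 0.089 in size turned (SE 0.12) and 0.060 not turned (SE 0.12). The other 2 ATPase genes, Rpt2 and Rpt4, lay between -0.12 and 0.24 on all arrays, and were named after their values were seen.

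Of the other base subunits, Rpn1 and Rpn2 are large scaffolds that dock ubiquitin-carrying proteins and other base subunits, and Rpn13 is a ubiquitin receptor. Their mean deposited ratio was 0.17, -0.015, 0.27 and -0.19, with 3 of 3 above 0 in experiments 3 and 7 and 3 of 3 below 0 in experiment 8. Rpn1 had deposited ratios of 0.17, 0.12, 0.13 and -0.32. Experiment 8 stood apart, on the other side of 0. The value of experiment 7 averages 2 spots that differ, at -0.085 and 0.35, whereas in experiment 8 both spots were below 0, at -0.37 and -0.26. Its mean was 0.035 in size turned (SE 0.10) and 0.027 not turned (SE 0.10). Rpn2 had 0.18, -0.13, 0.24 and -0.064. It was above 0 in experiments 3 and 7 and below 0 in experiments 4 and 8, with a mean of 0.12 in size turned (SE 0.077) and 0.058 not turned (SE 0.089).

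The lid holds the deubiquitinase Rpn11, its partner Rpn8 and a ring of scaffold subunits. The 7 measured lid genes had a mean deposited ratio of 0.13, -0.065, 0.30 and -0.15, and 7 of 7 were above 0 in experiment 7. Rpn6, which in yeast clamps the lid to the core particle, had deposited ratios of 0.17, -0.17, 0.068 and 0.19. It was the only regulatory gene above 0 in experiment 8 and the only 1 with a single sign after turning. Its mean was 0.15 in size turned (SE 0.065), at unadjusted p of 0.061 and adjusted p of 0.998 in limma, and 0.066 not turned (SE 0.085).

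Rpn7, another scaffold subunit of the lid, had deposited ratios of 0.023, -0.0037, 0.46 and -0.33. It was near 0 in experiments 3 and 4 and far from 0, on opposite sides, in experiments 7 and 8. Its mean was 0.038 in size in the turned reading (SE 0.13) and 0.036 in the other (SE 0.13). Rpn11, named here after its values were seen, had 0.17, -0.13, 0.50 and -0.47. Among the 14 regulatory genes that meet the symbol rule it had the highest ratio in experiment 7 and the lowest of all members in experiment 8. The lid means ranged in size from 0.038 to 0.15 turned and from 0.0069 to 0.13 not turned.

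Core and regulatory particle genes were therefore compared on each array, since both parts are needed in fixed numbers in the assembled complex. The mean of the core genes was -0.057, -0.19, 0.045 and -0.058, and the mean of the regulatory genes was 0.099, -0.072, 0.21 and -0.17. The core mean was thus below the regulatory mean in experiments 3, 4 and 7 and above it in experiment 8. The difference, core minus regulatory, was -0.16, -0.12, -0.17 and 0.12. If the ratio is Cy5 over Cy3, experiment 4 is opposite in condition to experiments 3 and 7.

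The difference averaged 0.021 in size turned (SD 0.16 over arrays) and 0.083 not turned (SD 0.13), both smaller than the spread between arrays. Without experiment 8 it was 0.15 in size not turned, and 0.067 turned. Without experiment 4 it was 0.069 in size. Turned, the difference had the opposite sign without experiment 3 (0.023 in size) and without experiment 7 (0.028 in size). Rpt3 pulled the regulatory mean towards the core mean in experiment 7. Without it, an alternative chosen after seeing the data, the difference was -0.16, -0.12, -0.22 and 0.11, which averaged 0.040 in size turned and 0.10 not turned. Within the regulatory particle, lid minus base ATPase means were 0.14, 0.062, 0.29 and 0.055, above 0 on all 4 arrays as deposited, and averaged 0.13 in size not turned (SD 0.11) and 0.10 turned (SD 0.15). Without Rpt3, also chosen after seeing the data, they were 0.13, 0.076, 0.11 and 0.022, and averaged 0.084 in size not turned (SD 0.048) and 0.046 turned (SD 0.095).

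**Figure D3:**
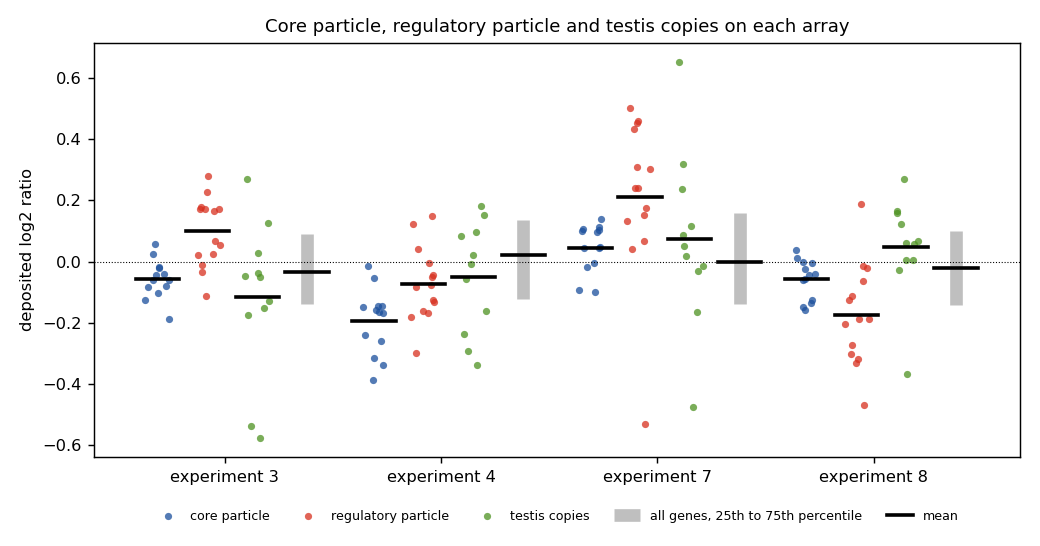
Deposited log2 ratio of each gene (points) of the core particle, the regulatory particle and the testis copies on each array, with group means (black bars) and, for all genes tested, the range between the 25th and 75th percentiles (grey) and the mean. The regulatory mean lies above the core mean in experiments 3, 4 and 7 and below it in experiment 8.

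The core genes also stood closer together than the other members. Their SD over genes was 0.063, 0.11, 0.078 and 0.065. The regulatory genes had SDs of 0.11, 0.12, 0.26 and 0.17, the testis copies had SDs of 0.25, 0.18, 0.28 and 0.16, and all genes had SDs of 0.34, 0.25, 0.28 and 0.25. The median range of a gene over the 4 arrays was 0.25 for core genes, 0.50 for regulatory genes, 0.43 for testis copies and 0.40 for all genes. This closeness is a description, since spots of abundant and of scarce transcripts differ in noise and no intensities were at hand.

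The number of genes below 0 differed by array as well. In experiment 3, 11 of 13 core genes, 3 of 14 regulatory genes and 8 of 11 testis copies were below 0, against 57.1% of all genes. In experiment 4, 13 of 13 core genes, 11 of 14 regulatory genes and 6 of 11 testis copies were below 0, against 50.6% of all genes. The corresponding numbers were 4, 1 and 4 in experiment 7, against 47.3% of all genes, and 11, 13 and 2 in experiment 8, against 53.9% of all genes.

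Experiments 7 and 8, which share their dye orientation, showed the regulatory genes on opposite sides. Of 14 regulatory genes, 12 (85.7%) were above 0 in experiment 7 and below 0 in experiment 8, as were 8 of 13 core genes (61.5%) and 1 of 11 testis copies (9.09%), against 33.6% of all genes. The exceptions in the regulatory particle were Rpt3, low on both arrays, and Rpn6, high on both. Some of the 12 lay close to 0. In experiment 8, Rpn5 was at -0.020 and Rpn12 at -0.015, both named after their values were seen. The Rpn12 value averages spots at 0.044 and -0.074, and Rpn1 in experiment 7 averages spots at -0.085 and 0.35. Among testis copies the 1 gene was Rpn12R. Across members, experiments 7 and 8 correlated at r = -0.26 (n = 38 genes). Within the core r was 0.55 (n = 13), whereas within the regulatory particle it was -0.19 (n = 14) and within the testis copies -0.16 (n = 11). Experiments 3 and 7 correlated at r = 0.59 over the 38 members and at 0.30 over 8237 genes. Within the parts this r was 0.304 in the core, 0.445 in the regulatory particle and 0.648 in the testis copies. The core value was thus close to that of all genes. These correlations run over genes that share the same arrays, and are descriptions only.

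**Figure D4:**
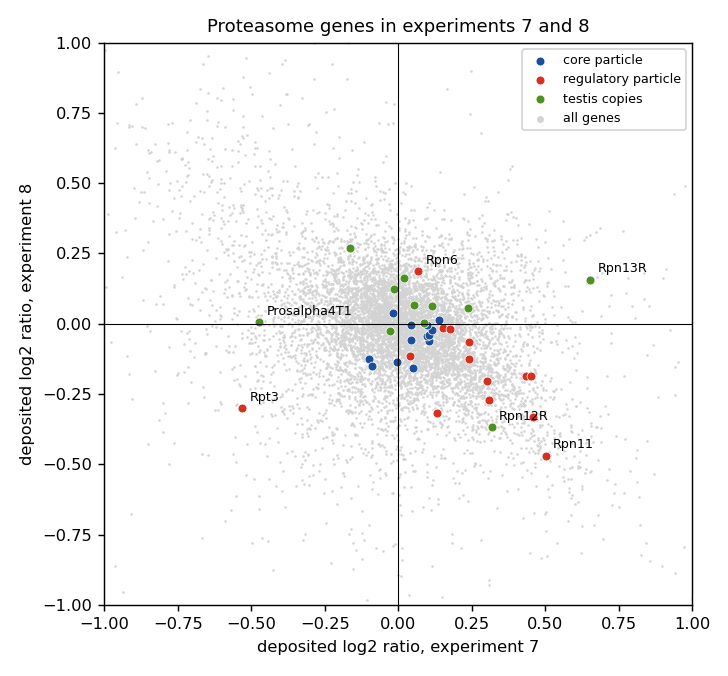
Deposited log2 ratio of experiment 8 (vertical axis) against experiment 7 (horizontal axis) for core genes, regulatory genes and testis copies, over all genes (grey). The axes end at 1 on either side of 0, which leaves out 80 of 8226 genes and no member. Of 14 regulatory genes, 12 lie at the lower right, above 0 in experiment 7 and below 0 in experiment 8.

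Lists of other early embryonic genes were set beside these arrays. In limma 0 of their genes passed the threshold in either reading, against 0% of all genes. The 12 measured of 22 early zygotic genes, which are transcribed as the embryo approaches cellularisation, had a mean deposited ratio of -0.19, 0.080, -0.54 and 0.43. All 12 were below 0 in experiment 7, and 11 of 12 were above 0 in experiment 8, the side opposite to the regulatory genes on both arrays. The exception in experiment 8 was slam, needed for the growth of the cellularisation furrows. The 13 measured of 16 maternal RNA genes had means of 0.12, -0.071, 0.081 and -0.10. In experiment 7 their median was -0.069 and 8 of 13 were below 0, the side opposite to the mean. Of the 13, 4 (30.8%) were above 0 in experiment 7 and below 0 in experiment 8, against 33.6% of all genes. Whether the stage of the embryos had a part in the values of the regulatory genes was not tested. The ratios hold no levels, so presence of the maternal markers that define the early embryo could not be checked from them.

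The testis copies are 11 genes related to a core or regulatory subunit and named for it, of 16 in the gene table. As a group they had a mean deposited ratio of -0.12, -0.051, 0.073 and 0.047, which averaged 0.014 in size turned (SD of the array means 0.087) and 0.012 not turned (SD 0.087). Prosalpha4T1 had deposited ratios of -0.54, -0.29, -0.47 and 0.0057. It was far below 0 in experiments 3 and 7 and at 0 in experiment 8. Its mean was 0.32 in size not turned (SE 0.11), at unadjusted p of 0.023 and adjusted p of 0.997 in limma, and 0.18 turned (SE 0.15).

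Prosalpha4T2, a second copy of the same alpha subunit, had -0.17, -0.057, -0.030 and -0.026. All arrays were below 0 and 3 of them lay close to it, with a mean of 0.043 in size turned (SE 0.071) and 0.071 not turned (SE 0.066). Prosalpha6T, which is known to be needed for sperm maturation, had -0.13, -0.34, 0.019 and 0.16. Its arrays fell on both sides of 0, and its mean was 0.098 in size turned (SE 0.094) and 0.070 not turned (SE 0.098).

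Prosbeta4R1 had deposited ratios of 0.27, -0.16, 0.24 and 0.056. The dye-swapped array alone was below 0, which is 1 sign after turning. Its mean was 0.18 in size turned (SE 0.070), at unadjusted p of 0.042 and adjusted p of 0.998 in limma, and 0.10 not turned (SE 0.094). Prosbeta4R2, a second copy of this beta subunit, had -0.58, -0.24, -0.014 and 0.12. It was the lowest member in experiment 3, and its mean was 0.058 in size turned (SE 0.14) and 0.18 not turned (SE 0.12). The 2 copies thus lay on opposite sides of 0 in experiments 3 and 7.

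Prosbeta2R2, a copy of the beta subunit with the trypsin-like site, had -0.037, 0.18, 0.11 and 0.062. It had the highest ratio of all members in experiment 4, and its mean was 0.010 in size turned (SE 0.077) and 0.080 not turned (SE 0.069). Prosbeta5R1, a copy of the beta subunit with the chymotrypsin-like site, had -0.15, 0.020, 0.086 and 0.0043. It left 0 mainly in experiment 3, with a mean of 0.020 in size turned (SE 0.071) and 0.010 not turned (SE 0.071).

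Among the copies of regulatory subunits, Rpn13R, related to the ubiquitin receptor, had deposited ratios of 0.13, -0.0090, 0.65 and 0.16. Experiment 7 held the highest value of any member on any array. Its mean was 0.24 in size turned (SE 0.12) and 0.23 not turned (SE 0.12), at unadjusted p of 0.092 and 0.10 in limma. Rpn12R, a copy of a lid subunit, had -0.049, 0.15, 0.32 and -0.37. It was high in experiment 7 and low in experiment 8, with a mean of 0.063 in size turned (SE 0.12) and 0.014 not turned (SE 0.12).

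Among the copies of base ATPases, Rpt3R had -0.045, 0.097, 0.052 and 0.067, all close to 0, with a mean of 0.0060 in size turned (SE 0.068) and 0.043 not turned (SE 0.065). Rpt4R had 0.030, 0.083, -0.16 and 0.27. It was low in experiment 7 and high in experiment 8, and its mean was 0.013 in size turned (SE 0.091) and 0.054 not turned (SE 0.088).

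Set against the other 27 members, the testis copies differed in no way that all 4 arrays shared. The mean of the copies was -0.12, -0.051, 0.073 and 0.047, and the mean of the other members was 0.024, -0.13, 0.13 and -0.12. The difference, copies minus others, was -0.14, 0.080, -0.059 and 0.16, below 0 in experiments 3 and 7 and above 0 in experiments 4 and 8. It averaged 0.029 in size turned (SD 0.13) and 0.011 not turned (SD 0.14). Without experiment 8 the size was 0.093 turned and 0.039 not turned, and without experiment 3 it was 0.0083 turned and 0.062 not turned. Without experiment 4 it was 0.011 in both readings, and without experiment 7 it was 0.018 turned and 0.035 not turned. Compared with all arrays, the sign of the average was the opposite without experiment 3 turned. Not turned, it was the opposite without experiment 4 and without experiment 8. After turning, the difference lay on the same side of 0 in experiments 3, 4 and 7, and on the other side in experiment 8.

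Each copy was also paired with the subunit it is named for. Of 11 pairs, the difference of copy minus subunit had 1 sign on all 4 deposited arrays in 1 pair, and in 0 pairs after turning. In that pair, Prosbeta4R1 minus Prosbeta4 was 0.40, 0.097, 0.33 and 0.20, with a mean of 0.26 (SD 0.13, n = 4 arrays) as deposited and 0.21 in size turned (SD 0.22). With 4 arrays the smallest two-sided exact permutation p is 0.125, so no pair could pass a threshold of 0.05. Rpt3R minus Rpt3 had the largest mean as deposited, 0.27 (SD 0.26), and its values were -0.033, 0.18, 0.58 and 0.37. The low ratios of Rpt3 in experiments 7 and 8 were thus not shared by its copy. Over all pairs the mean difference ranged in size from 0.020 to 0.27 not turned and from 0.031 to 0.21 turned. Spots of cDNA can take up transcripts of related genes, and this was not tested for the pairs.

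**Figure D5:**
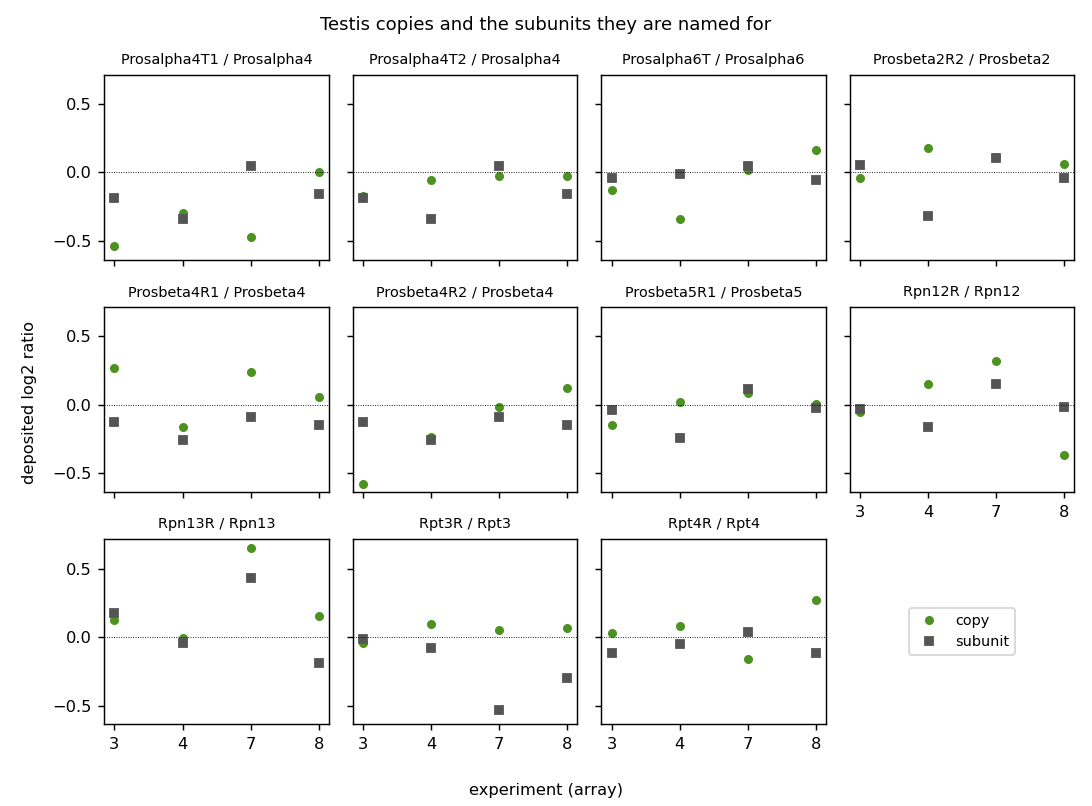
Deposited log2 ratio of each of 11 testis copies (circles) and of the subunit it is named for (squares) on the arrays of experiments 3, 4, 7 and 8. Only Prosbeta4R1 lies on 1 side of its subunit on all 4 arrays.

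Genes that mark the male germ line were examined beside the copies. Of 21 listed genes 13 were measured, with a mean deposited ratio of -0.12, -0.045, 0.022 and 0.12. ProtA, a sperm chromatin protein named after its values were seen, had -0.90 in experiment 4 and 0.76 in experiment 7. Without it, an alternative chosen after seeing the data, the means were -0.095, 0.026, -0.040 and 0.10, with the opposite sign in experiments 4 and 7. Mst98Ca, also named after its values were seen, stood at -0.78 in experiment 7 and was kept, so the sign there depends on single genes. None of the 13 passed the threshold in either reading, against 0% of all genes. At an unadjusted p under 0.05 in limma stood aly, a regulator of the testis transcription programme, with deposited ratios of -0.26, 0.23, -0.33 and -0.054 and a mean of 0.22 in size turned (SE 0.075), and bol, a translation regulator of male meiosis. The bol ratios were 0.15, 0.56, 0.21 and 0.23, above 0 on all arrays, with a mean of 0.29 in size not turned (SE 0.090). The adjusted p was 0.97 for aly and 0.997 for bol. Of all genes, 4.93% had an unadjusted p under 0.05 in limma turned and 2.51% not turned. Whether the spots of these genes and of the copies read any transcript in embryos was not tested.

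The rest of the pathway showed ratios of similar size. Of 10 genes for assembly factors and regulators 9 were measured, among them Pomp (the core assembly chaperone), Usp14 and Uch-L5 (deubiquitinases of the particle), REG (an alternative cap), Sem1 (a small lid subunit whose symbol does not meet the rule for members) and cnc (the transcription factor that induces proteasome genes). Their mean deposited ratio was -0.038, -0.13, 0.12 and -0.060, with the same sign as the mean of all proteasome members on every array (-0.017, -0.11, 0.11 and -0.070). Single genes varied, with 8, 7, 2 and 5 of the 9 below 0 on these arrays. The ratios of cnc, named after its values were seen, were -0.078, 0.31, -0.10 and 0.048. They lay opposite to the member mean in experiments 4, 7 and 8. Of 24 names for ubiquitin itself, its activating and conjugating enzymes and its delivery factors, 12 genes were measured, with means of 0.016, -0.066, 0.089 and -0.090. In both lists 0 genes passed the threshold in either reading, against 0% of all genes. At an unadjusted p under 0.05 in limma there were also 0 genes, against 4.93% of all genes turned and 2.51% not turned. Lists this short can hold 0 genes at such shares. The farthest end of any gene's 95% interval was 1.42-fold turned and 1.34-fold not turned for the assembly list, and 1.39-fold turned and 1.36-fold not turned for the ubiquitin list.

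In the early zygotic list, slam had an unadjusted p of 0.043 in the turned reading of limma. Its deposited ratios were -0.40, 0.10, -0.53 and -0.034, low in experiments 3 and 7, with a mean of 0.27 in size turned (SE 0.10, adjusted p of 0.998 in limma). No gene of the maternal list had an unadjusted p under 0.05 in limma in either reading. Of all genes, 4.93% had such a p turned and 2.51% not turned.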

How the data were processed

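Total RNA of wounded and unwounded embryos was hybridised together on 4 arrays (experiments 3, 4, 7 and 8, taken as replicates of 1 condition). The authors analysed the images with GenePix Pro 6.0, took log2 ratios and loess normalised them in limma, and deposited 1 log2 ratio per spot and array. The methods also remove dim and questionable spots, but the sources do not say if the deposited values went through that step. Precision is limited by the number of arrays. Of 12144 spots, 160 control spots were left out. Of 11984 probes, 9917 had 1 gene in the platform annotation, 625 had several and 1442 had none listed. Symbols were updated through the gene ID for 9746 probes and kept as given for 171. Spots of a gene were averaged per array, and the 8240 genes measured on 3 or 4 arrays entered a two-sided moderated test (functions lmFit and eBayes of limma 3.58.1, under R 4.3.3) without a dye term, with Benjamini-Hochberg adjustment over all genes. A call took an adjusted p under 0.05 and a mean of at least 1.5-fold, as in the study's methods. The fit was also run on simulated data with independent arrays, unlike experiments 7 and 8. That run does not show how many changes the fit would find in these data.

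Members and gene lists were chosen with earlier results of these data known. Values on every array are given for the highest and lowest mean of each subunit class, for every measured testis copy, for members at an unadjusted p under 0.05 or with 1 sign on all deposited arrays, and for members whose spots differ by over 0.5. List genes outside the members are named with values only at an unadjusted p under 0.05, or where marked as named after their values were seen. List means and their differences have no test. Alternatives were the other reading of experiment 4, a dye term, each array left out, other filters, the median of spots, probes fitted singly and arrays scaled to 1 spread. No sequence, promoter or protein comparison was made.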

Additional observations from a re-analysis of the deposited data

Results flagged for a closer look

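For each named member and each group mean, the array farthest from the other 3 was set against the range of the 4 values, and a gap that took up more of the range than Dixon's 95% critical value was noted. Of 84 searches, 5 passed. A rate of about 1 in 20 would give 4.2, but that rate does not apply here. Named members were picked partly by these same values, and the search ran over both readings. Where all 4 deposited ratios share a sign, turning puts experiment 4 alone across 0. In Rpn1, experiment 8 stood at -0.32, while the other 3 arrays lay between 0.12 and 0.17 as deposited. Of those, experiment 7 averages 2 spots at -0.085 and 0.35. In Prosalpha1, experiment 4 stood at -0.39, while the other 3 arrays lay between -0.12 and -0.10, and this was noted both as deposited and after turning experiment 4 against the others. In Prosbeta4, experiment 4 stood at -0.26 with the other deposited ratios between -0.15 and -0.091, and this was noted only after turning. For the mean of the testis copies, experiment 3 stood at -0.12 with the other deposited means between -0.051 and 0.073, again only after turning.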

How the results depend on the processing

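No member passed the threshold under any setting. The number at an unadjusted p under 0.05, which was 1, was 0 with a dye term and 0 to 2 with 1 experiment left out, the 2 being Rpn8 and Prosalpha4T1 without experiment 8 and without turning (genes here are named after their values were seen). Turning experiment 8 as well, chosen after seeing the data, gave 3 (Rpt5, Rpn11 and Rpn13), with a smallest adjusted p of 0.51 among members in limma, a mean of members of 0.069, a core minus regulatory difference of 0.079 and a copies minus others difference of 0.11, all in size. Leaving out 1 experiment gave core minus regulatory sizes of 0.023 to 0.069 turned, against 0.021 with all, and of 0.054 to 0.15 not turned, against 0.083 with all. Turned, the sign of this difference was the opposite without experiment 3, without experiment 7 and with the dye term. Not turned, its sign stayed the same whichever experiment was left out. The sign of the mean was the opposite for 21 of 38 members without turning, for 5 with the dye term, for 5 to 8 without 1 experiment (turned), and for 0 under the other filters, the median of spots or the scaled arrays. The causes were not tested. Counting Rpn9 and Rpn10, which only the study's gene table names and which were added after seeing the data, gave a mean of members of 0.035 and a core minus regulatory difference of 0.022 in size. No paired analysis was possible because the arrays form 1 group, in which each array already sets a wounded against an unwounded sample.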
